A study of Mus musculus with 6 samples.

Results

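Homologous recombination and Fanconi genes were measured in c-Kit+ APL progenitors and in normal mouse MPs, together with the damage checkpoint kinases and a pair of mismatch repair genes that act with them. The genes were taken from a list of 39 names by their symbol in the deposited table, which held 37 of them among 16440 genes. The other 2, Rad51b and Rad51d, were in the table under the older symbols Rad51l1 and Rad51l3. They were found by gene identifier, are described with their family and are left out of the counts of the 37 genes. The study set c-Kit+ leukemic cells against normal progenitors to find the genes that are dysregulated in immature APL cells. Normal MPs (3 libraries) were Lin-Sca-1-c-Kit+ bone marrow cells of FVB N/J mice. c-Kit+ APL progenitors (3 libraries) were GFP-labeled cells of the same strain that carried PML/RARα under the hMRP8 promoter, which is active in myeloid cells. The labels name no drug for either group. The GFP came from the MigR1 retrovirus and the cells had been expanded in syngeneic recipient mice, so that the leukemic group also differs from the normal group in transduction and transplantation. For the labeling, the methods describe culture with cytokines and transfer into sublethally irradiated mice. Whether the sequenced cells came from those recipients or from a later transfer is not stated. The submitters describe the 3 libraries of a group as biological replicates, but neither the labels nor the methods state whether these were separate mice or how many primary leukemias were sampled, so p-values measure the spread between libraries only.

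As background, homologous recombination repairs a DNA double-strand break by copying the sister chromatid. The MRN complex (Mre11a, Rad50 and Nbn) and its cofactor Rbbp8 start trimming the broken ends, Exo1 extends the single strand, and Brca1, Palb2 and Brca2 prepare it for strand exchange with the help of the family of Rad51b, Rad51c, Rad51d, Xrcc2 and Xrcc3. The Fanconi pathway unhooks DNA crosslinks: a core complex attaches ubiquitin to Fancd2 and Fanci, which recruit nucleases and recombination proteins. Atm and Atr sense breaks and stalled forks and signal through Chek2 and Chek1. Many of these genes are transcribed most in dividing cells.

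Levels are given as scaled fragments, the deposited estimate of fragments per gene after scaling by a factor of each library, and fold changes as log2 of APL over MP on log2(scaled fragments + 1). A gene is called up- or downregulated at a Benjamini-Hochberg adjusted p under 0.05 from limma, over 14595 genes tested, with a fold change over 1.5. Total fragments per library lay between 20608715 and 28382457. MP library 3 stood apart from its group, with a median absolute log2 difference of 0.204 and 0.207 from MP libraries 1 and 2 against 0.0743 between those libraries. The APL pairs lay between 0.0824 and 0.129. Kit, the receptor used for sorting, had 10442 to 10970 scaled fragments in the MP libraries and 5780 to 6033 in the APL libraries, and Mpo, a granule enzyme of myeloid progenitors, was abundant in both groups. Ly6a, which encodes Sca-1, stayed under 50 scaled fragments in all 6 libraries. By the rule above, Kit was downregulated (log2 fold change −0.85, adjusted p = 5.9e-06, limma) and Ly6a, at these low levels, was upregulated (0.68, adjusted p = 0.043).

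All 37 genes were expressed and tested. Of these, 10 were downregulated, 2 were upregulated and 25 were not called. The downregulated share was 27.0%, beside 24.4% of all genes tested, and the upregulated share was 5.41%, beside 21.7%. Under median ratio scaling, 6 of the 37 were downregulated (16.2%, beside 22.4%), with Palb2, Xrcc3, Mre11a and Eme1 inside the fold limit, so that the downregulated share lay above or below that of all genes with the scaling. The downregulated genes were Chek2, Fance, Rad52, Chek1, Atr, Blm, Xrcc3, Mre11a, Eme1 and Palb2, with log2 fold changes between −0.99 and −0.60. The upregulated genes were Rad51c (0.80) and Fanca (0.72). None of the 37 changed by more than 2-fold at the deposited scaling, and the median log2 fold change was −0.31 against −0.10 over all genes tested. Of the 37 log2 fold changes, 31 were below 0. With the fold limit set aside, 22 genes (59.5%) were lower and 5 (13.5%) higher at the adjusted p, beside 37.3% and 29.7% of all genes. The 3 APL values lay wholly below the 3 MP values for 23 genes and wholly above for 5, and the groups overlapped for 9. Over all genes tested, 39.8% lay wholly below and 31.1% wholly above. In sorted bulk cells, fewer cells of a type and less RNA per cell cannot be told apart.

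**Figure D1:**
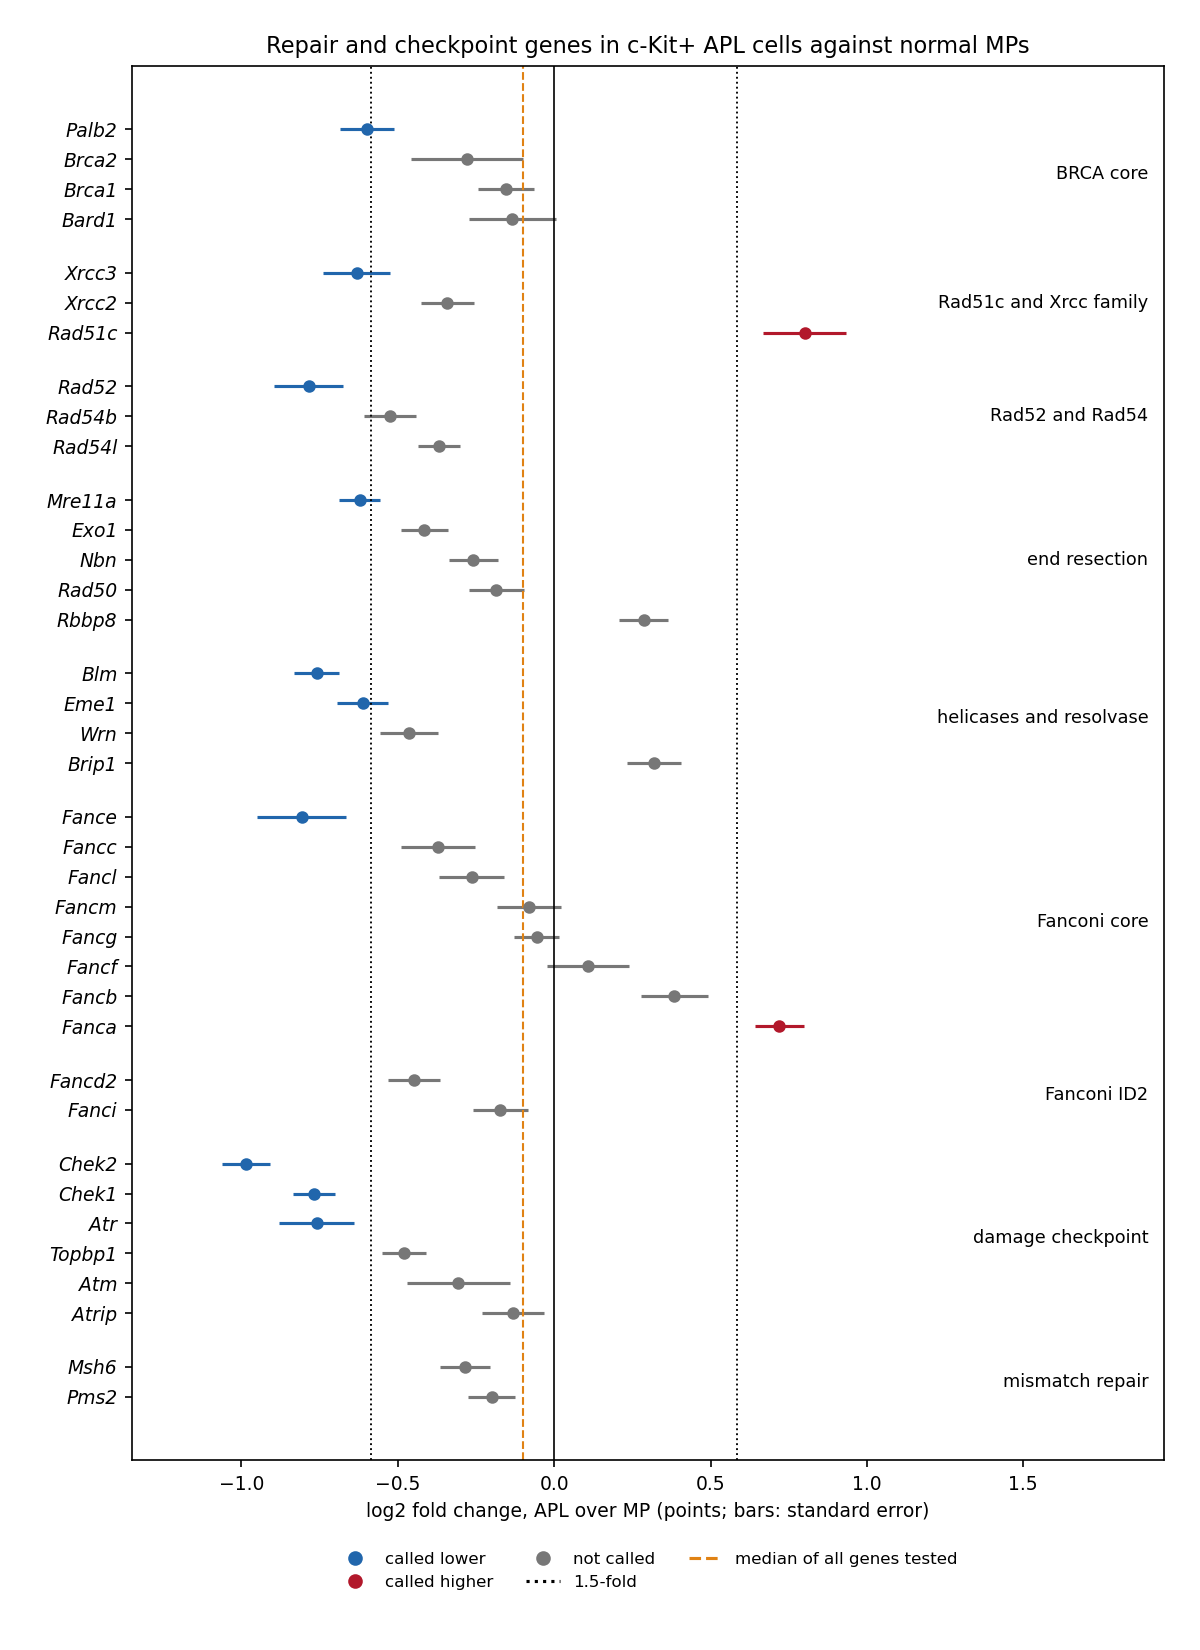
The log2 fold change of each of the 37 genes (APL over MP; points, with bars for the standard error of the limma fit, 3 libraries per group), in groups by role. Most points lie to the left of the dashed median of all genes tested (−0.10), 10 called genes lie beyond the dotted 1.5-fold line on the left, and Rad51c and Fanca lie beyond it on the right.

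The BRCA core held 1 called gene of 4. Brca1, whose protein acts early in the choice of homologous recombination, had 2065, 2156 and 1760 scaled fragments in the 3 MP libraries, in order of their numbers, and 1877, 1750 and 1733 in those of APL, and the same order is kept below. The groups overlapped (log2 fold change −0.15, standard error 0.09, adjusted p = 0.16, limma). Bard1, its obligate partner, gave 989, 908 and 666 in MPs and 729, 802 and 774 in APL, also overlapping (−0.13). Both partners were lowest among MPs in library 3. Without that library the log2 fold change was −0.24 for Brca1 (adjusted p = 0.0086, limma) and −0.30 for Bard1 (adjusted p = 0.007), both inside the fold limit. Brca2, a large mediator of strand exchange, gave 2022, 1825 and 1337 in MPs and 1774, 1225 and 1274 in APL. MP library 3 and APL library 1 crossed between the groups, and the log2 fold change of −0.28 had a 95% interval from −0.69 to 0.13 (adjusted p = 0.20, limma). Palb2, the bridge between Brca1 and Brca2, was the downregulated gene of the core, with 812, 830 and 760 in MPs and 566, 502 and 518 in APL. Its groups did not overlap, and its log2 fold change of −0.60 (adjusted p = 0.00026, limma) stood just past the fold limit. Without MP library 2 it was −0.57 and without APL library 2 it was −0.56, both inside the limit.

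Rad51c and its partners went in opposite directions. Rad51c, which belongs to both complexes of its family, was the most strongly upregulated of the 37 genes, with 177, 143 and 179 scaled fragments in MPs and 297, 298 and 272 in APL (log2 fold change 0.80, standard error 0.13, adjusted p = 0.00065, limma). Every APL library lay far above every MP library. Xrcc3, its partner in the smaller complex, was downregulated, from 341, 372 and 357 in MPs to 220, 248 and 222 in APL (−0.63, adjusted p = 0.00075; −0.57 under median ratio scaling). Xrcc2, of the larger complex, was lower by less than 1.5-fold (−0.34, adjusted p = 0.0061). The other members of the larger complex, found under their older symbols, were also lower: Rad51b fell from 243 ± 25.1 to 139 ± 7.05 scaled fragments (SD, n = 3; log2 fold change −0.80, called), and Rad51d had a log2 fold change of −0.46, inside the fold limit. Reads of Xrcc3 may be shared with Klc1, with which it is merged into 1 locus of the table, and Klc1 had a log2 fold change of 0.34.

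Rad52, a single-strand annealing factor, was downregulated from 446, 507 and 552 scaled fragments in MPs to 275, 296 and 300 in APL. The groups were far apart, with a log2 fold change of −0.78 (standard error 0.11, adjusted p = 0.00023, limma). Rad54l, a motor protein of strand invasion, gave 1748, 1780 and 1728 in MPs and 1386, 1403 and 1282 in APL. It was lower in every APL library, but by less than 1.5-fold (−0.37, adjusted p = 0.0012). Its relative Rad54b had a log2 fold change of −0.52.

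Among the end resection genes, Mre11a, the nuclease of the MRN complex, was downregulated, from 1685, 1674 and 1775 scaled fragments in MPs to 1121, 1113 and 1101 in APL (log2 fold change −0.62, standard error 0.07, adjusted p = 3.5e-05, limma). Under median ratio scaling the value was −0.56, inside the fold limit. The other MRN subunits moved less. Nbn, the subunit that binds Atm, had −0.26 (adjusted p = 0.016), and Rad50, the ATPase, had −0.18 with overlapping groups (adjusted p = 0.095). Rbbp8, the cofactor that activates Mre11a, was higher, with 1467, 1293 and 1345 in MPs and 1651, 1586 and 1767 in APL. Its groups did not overlap, but the difference was below 1.5-fold (0.29, adjusted p = 0.010). Exo1, the long-range exonuclease, had −0.42 (adjusted p = 0.0011).

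Of the helicases and the resolvase, Blm, which dissolves joined chromatids, was downregulated from 2829, 2777 and 2658 scaled fragments in MPs to 1728, 1528 and 1630 in APL (log2 fold change −0.76, standard error 0.07, adjusted p = 1.8e-05, limma). Eme1, the partner of the Mus81 nuclease, was downregulated as well (−0.61, adjusted p = 0.00016). Without MP library 3 its log2 fold change was −0.58, inside the fold limit. Reads of Eme1 may be shared with Lrrc59, with which it is merged into 1 locus of the table. Lrrc59 had a mean of 6944 scaled fragments in MPs, against 727 for Eme1, and a log2 fold change of 0.42. Wrn, the Werner syndrome helicase, had −0.46. Brip1, the helicase bound by Brca1, went the other way, with 908, 849 and 771 in MPs and 1077, 1078 and 994 in APL. It was higher in every APL library by less than 1.5-fold (0.32, adjusted p = 0.0095).

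The 8 Fanconi core genes spread over the widest range, from −0.81 to 0.72, with a median of −0.07. Fanca, which forms a module with Fancg, was upregulated from 2069, 1839 and 1737 scaled fragments in MPs to 3178, 3048 and 3052 in APL (log2 fold change 0.72, standard error 0.08, adjusted p = 4.7e-05, limma). The lowest APL library lay well above the highest MP library. Fance, which docks Fancd2 on the complex from a module with Fancc and Fancf, was downregulated from 621, 624 and 799 in MPs to 324, 420 and 422 in APL (−0.81, standard error 0.14, adjusted p = 0.00094). Here MP library 3 was the highest and APL library 1 the lowest, and without both of them the log2 fold change was −0.56. Fancb, a scaffold of the catalytic module, was higher by less than 1.5-fold (0.38, adjusted p = 0.011), whereas Fancl, the ubiquitin ligase of that module, had −0.26 (adjusted p = 0.048) and Fancc had −0.37 (adjusted p = 0.021). Fancf (0.11), Fancg (−0.06) and Fancm (−0.08) overlapped between the groups, and Fancf and Fancg changed sign with the scaling.

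Fanca lies on chromosome 8 (GRCm38, 123254195 to 123318576). The 778 genes tested on that chromosome had a median log2 fold change of 0.48, against −0.13 for genes on all other chromosomes, and the part of this shift in the Fanca value was not tested. The value of Fanca was 0.24 above the median of its own chromosome. Zfp276, which the table merges with Fanca into 1 locus, was upregulated too (0.88). Wrn is the other listed gene on chromosome 8, and it was lower. The 37 genes lie on 13 chromosomes. Of them, 9 share a locus of the table with another gene (24.3%, beside 15.6% of all genes in the table), so that their fragments could have been divided between neighbors. These are Xrcc3, Eme1, Fanca, Fancl, Fanci, Rad54l, Rad54b, Atr and Msh6. Fanci, with a mean of 979 scaled fragments in MPs, shares its locus with Polg (2439, log2 fold change −0.51). Fancl, with a mean of 610, shares its locus with Vrk2 (729, log2 fold change 0.23).

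The substrates of the Fanconi core were not called. Fancd2 gave 1456, 1381 and 1335 scaled fragments in MPs and 1118, 950 and 995 in APL, and was lower in every APL library by less than 1.5-fold (log2 fold change −0.45, adjusted p = 0.0013, limma). Its partner Fanci gave 1010, 911 and 1016 in MPs and 946, 855 and 807 in APL. MP library 2 lay below APL library 1, so the groups overlapped (−0.17, adjusted p = 0.11).

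The damage checkpoint genes held 3 of the 10 decreases. Chek2, the kinase downstream of Atm, had the largest change of the 37 genes at the deposited scaling, with 1296, 1301 and 1437 scaled fragments in MPs and 695, 658 and 681 in APL. This was a 1.98-fold decrease (log2 fold change −0.99, standard error 0.08, adjusted p = 5e-06, limma), and no APL library reached 700. Scaled to the same total, the log2 fold change was −1.12. Chek1, the kinase downstream of Atr, gave 1702, 1656 and 1672 in MPs and 1009, 938 and 1005 in APL (−0.77, standard error 0.07, adjusted p = 1.1e-05). The libraries of either group lay close together, and the groups were far apart. Atr gave 3198, 3179 and 2554 in MPs and 2030, 1584 and 1665 in APL, with no overlap (−0.76, standard error 0.12, adjusted p = 0.00047). Atrip, its binding partner, gave 734, 730 and 898 in MPs and 689, 730 and 726 in APL. The highest APL library lay just below the lowest MP library, and the log2 fold change was −0.13 (adjusted p = 0.26). Atm gave 2801, 2871 and 1866 in MPs and 2295, 1821 and 1896 in APL. MP library 3 lay among the APL libraries, and the log2 fold change of −0.31 did not pass the test (adjusted p = 0.13). Topbp1, the activator of Atr, was lower by less than 1.5-fold (−0.48, adjusted p = 0.00030).

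Of the mismatch repair pair, Msh6, which recognizes base mismatches, gave 4155, 4268 and 3740 scaled fragments in MPs and 3086, 3465 and 3429 in APL (log2 fold change −0.29, adjusted p = 0.012, limma). Pms2, an endonuclease, gave 887, 850 and 904 in MPs and 743, 798 and 758 in APL (−0.20, adjusted p = 0.040). The groups did not overlap for either gene, and both differences were below 1.5-fold.

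**Figure D2:**
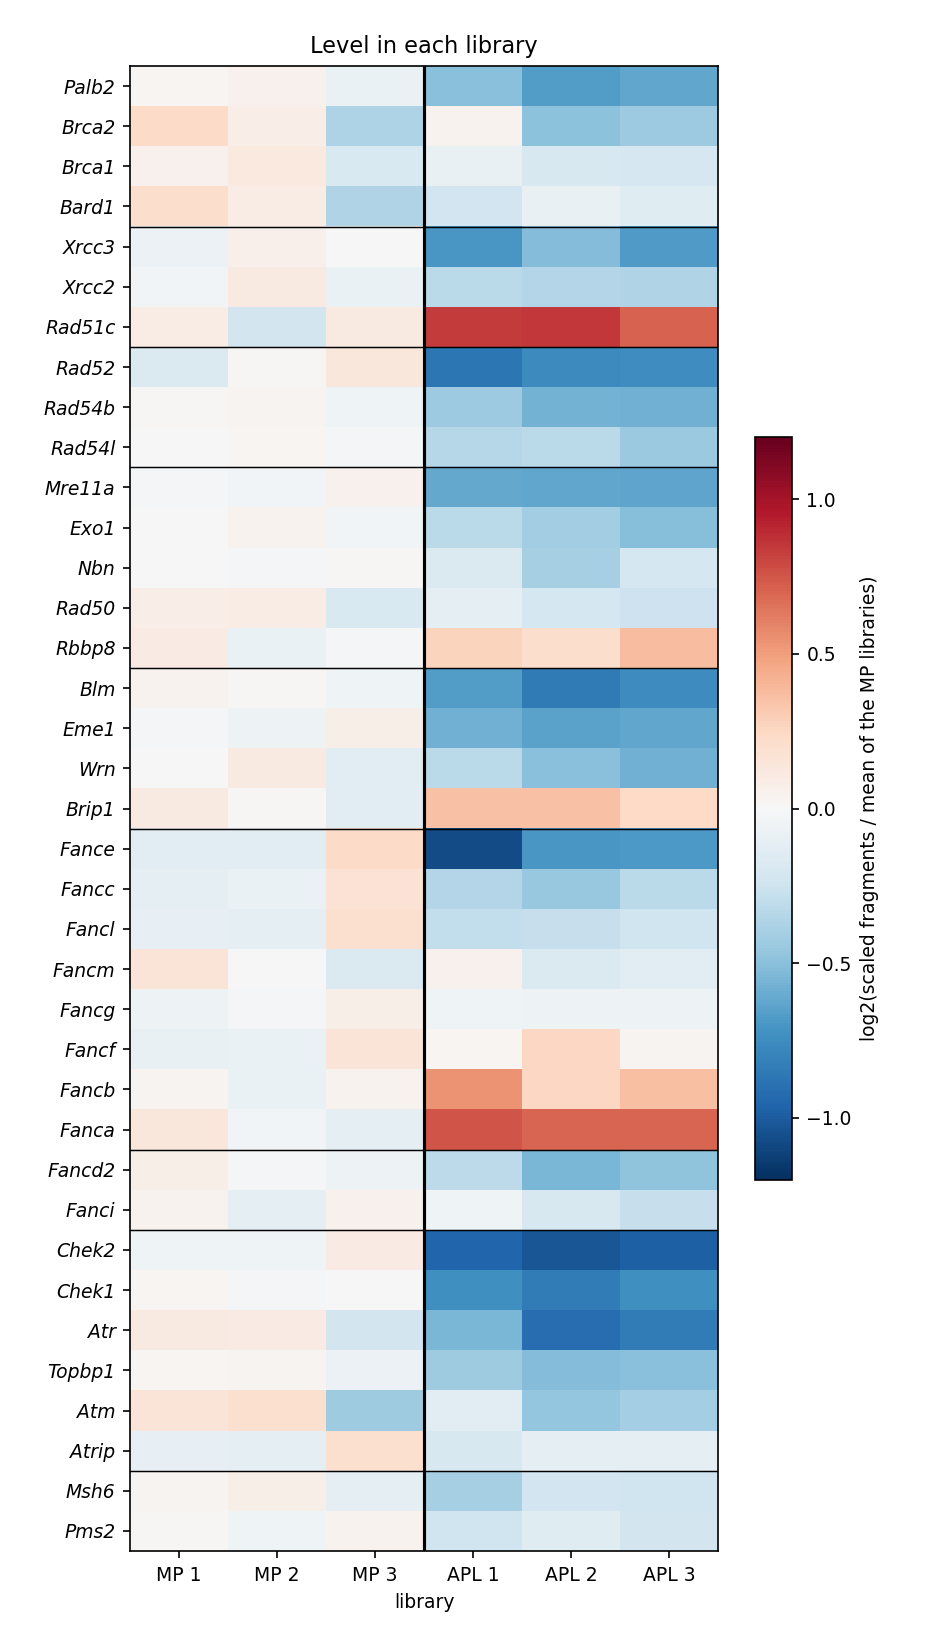
Level of the 37 genes in each of the 6 libraries, as log2 of scaled fragments over the mean of the 3 MP libraries (color), with lines between role groups. Rad51c and Fanca are red and Chek2, Chek1, Rad52 and Blm are blue in all 3 APL libraries, whereas Brca2, Bard1 and Atm are blue in MP library 3 as well.

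Per length, the order of the genes shifted between the groups. On the FPKM scale, Topbp1 had the highest level of the 37 genes in both groups, 58.1 ± 1.88 in MPs and 41.7 ± 1.76 in APL (SD, n = 3). Chek2 stood 4th in MPs (21.0 ± 1.23) and 14th in APL (10.5 ± 0.36), and Chek1 went from 5th to 12th. Fanca went from 10th (15.8 ± 1.66) to 2nd (25.9 ± 0.70). Rad51c, Brca2, Brip1, Fancc and Fancm were among the lowest 6 genes in both groups on this scale. Rad51c, the last of the 37 in MPs, had 2.13 ± 0.27 FPKM there and 3.67 ± 0.24 in APL.

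Libraries of 1 group differed from each other with transcript length. The deviation of MP library 3 from the mean of MP libraries 1 and 2 fell with the length of the longest coding transcript. Over the 37 genes, Pearson's r with log2 of the length was −0.77 and Spearman's rho with the length was −0.75. Over 9868 genes with a mean of at least 100 scaled fragments, r with log2 of the length was −0.61. APL library 1 deviated from APL libraries 2 and 3 in the opposite direction, with r = 0.64 over the 37 genes and 0.29 over the 9868. These are descriptions across genes of single libraries, genes are not independent replicates, and the relation was looked for after the library values had been seen. The log2 fold change itself had r = 0.15 with log2 of the length over the 37 genes. Atm, Brca2 and Atr, with the longest transcripts, were low in MP library 3 and high in APL library 1, by 0.60, 0.52 and 0.32 below and 0.30, 0.51 and 0.32 above the other libraries of their group on the log2 scale. The short Fance did the reverse, by 0.36 above in MP library 3 and 0.38 below in APL library 1.

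Without MP library 3 and APL library 1, a setting chosen after seeing the data, 13 genes were downregulated (35.1%, beside 20.1% of all genes) and Rad51c and Fanca were upregulated. Brca2 (−0.62), Atm (−0.61), Wrn (−0.60) and Rad54b (−0.59) were then past the limit, and Fance (−0.56) was not. With 2 libraries left per group, the spread rests on few degrees of freedom.

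**Figure D3:**
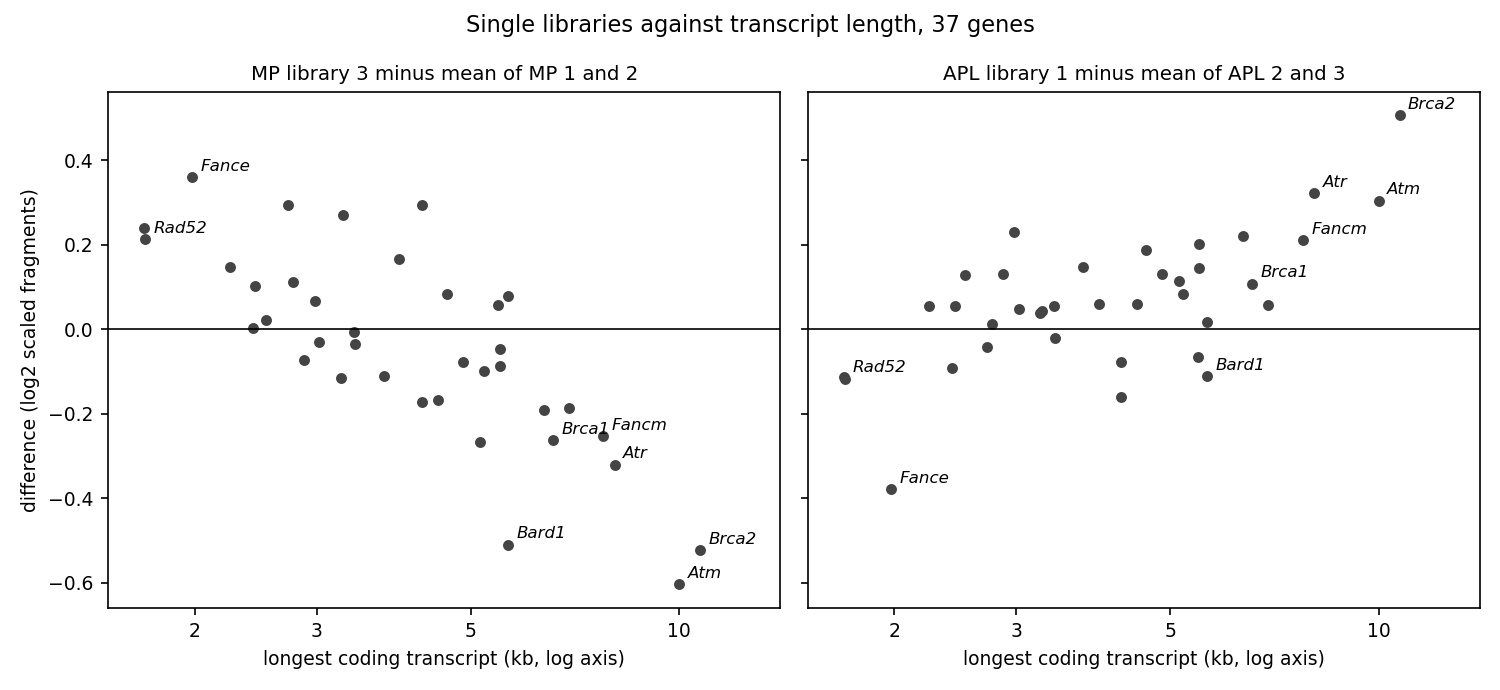
Deviation of MP library 3 from the mean of MP libraries 1 and 2 (left) and of APL library 1 from the mean of APL libraries 2 and 3 (right), in log2 scaled fragments, against the length of the longest coding transcript in kb (log axis), with 1 point for each of the 37 genes. Atm and Brca2 lie lowest on the left and Brca2 highest on the right, and Fance lies at the opposite end of both panels.

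Partner subunits were also compared as ratios within a library, which the scaling of the libraries cannot change. Deviations of a library with transcript length, described above, need not cancel in a ratio of partners of unlike length. The 11 pairs were chosen from known complexes after the values had been seen, so that the ratios are descriptions. For 7 pairs the groups did not overlap. No share over other pairs of genes was computed to set beside this count. The shares for single genes, 39.8% wholly below and 31.1% wholly above, are of levels and not of ratios. The ratio of Rad51c to Xrcc3 was 0.519, 0.384 and 0.50 in MPs and 1.35, 1.2 and 1.22 in APL, so that Xrcc3 had more fragments in every MP library and Rad51c in every APL library. The ratio of Fance to Fancf fell from 3.14, 3.13 and 3.41 to 1.51, 1.68 and 1.97. The ratio of Fanca to Fancg rose from 2.22, 1.91 and 1.70 to 3.38, 3.27 and 3.28, and the ratio of Fancb to Fancl went from 0.621, 0.578 and 0.512 to 1.01, 0.816 and 0.859. Smaller differences without overlap were those of Mre11a to Rad50 (−0.44 on the log2 scale, APL minus MP), Fancc to Fance (0.44) and Fancd2 to Fanci (−0.28). Brca1 to Bard1, Palb2 to Brca2, Nbn to Rad50 and Atr to Atrip overlapped. Atr has a longer transcript than Atrip (8074 against 4248 bases). Its ratio to Atrip was 4.4, 4.4 and 2.8 in MPs and 2.9, 2.2 and 2.3 in APL. Only MP library 3 and APL library 1 crossed there. The part of transcript length in the ratios was not tested. Xrcc3, Fanca, Fancl, Fanci and Atr also share a locus with another gene. The two-sided exact permutation test of 3 against 3 libraries cannot go below p = 0.1, which these 7 pairs reached, and p adjusted over the 11 pairs was 0.157.

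**Figure D4:**
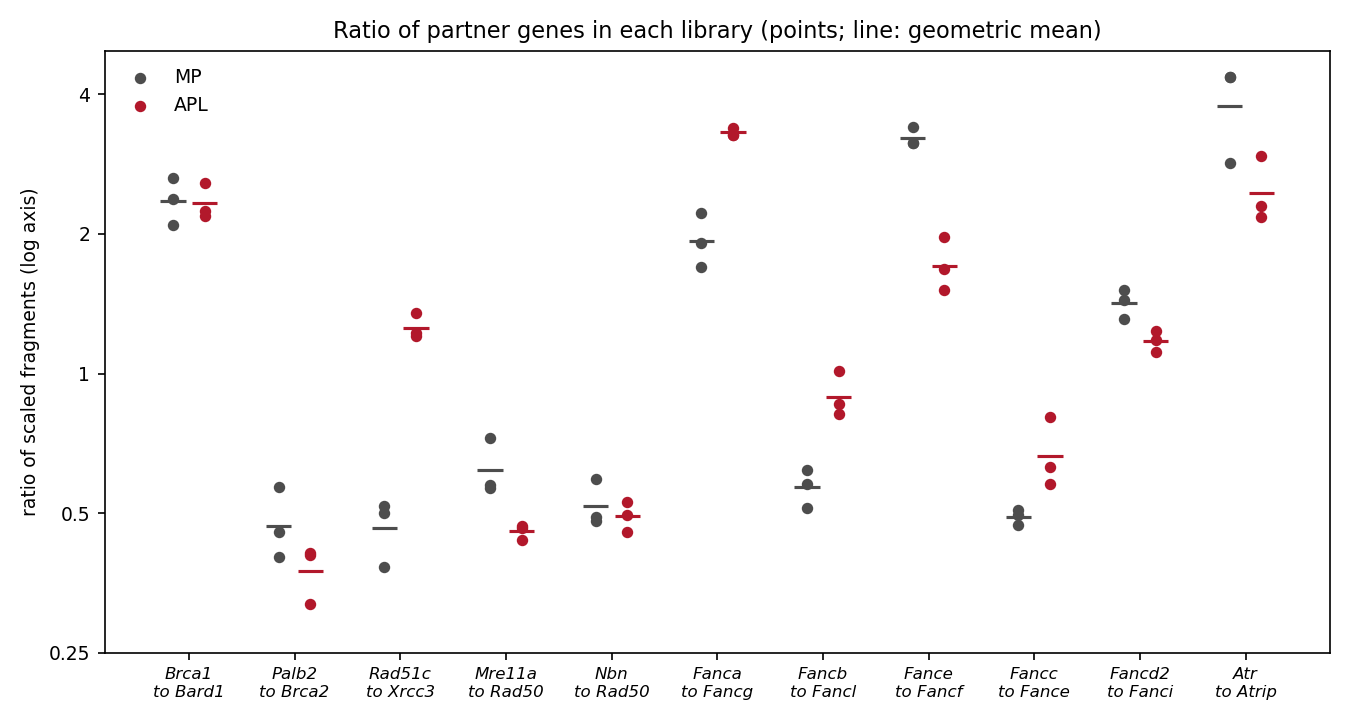
Ratio of scaled fragments of 11 partner pairs in each library (points; log axis; bars are geometric means; 3 MP and 3 APL libraries). The ratio of Rad51c to Xrcc3 lies below 1 in all MP libraries and above 1 in all APL libraries, and the ranges of Brca1 to Bard1 overlap between the groups.

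Promoter sequences were read from RefSeq (GRCm38.p6) for 29 of the 37 genes. The window was the 250 bases before each listed start, and it can lie inside the gene where RefSeq has a further start upstream. The following bases lie outside the RefSeq gene, next to its outermost start, and are shown for the partners of opposite direction, for the upregulated Fanca and for the downregulated Chek1. They read 5′ to 3′ on the gene's own strand, the minus strand for all 4 genes, with CCAAT words of either strand in capitals. Rad51c is at chr11:87404955-87405154, Xrcc3 at chr12:111813894-111814093, Fanca at chr8:123318652-123318826 and Chek1 at chr9:36726659-36726858.
Rad51c: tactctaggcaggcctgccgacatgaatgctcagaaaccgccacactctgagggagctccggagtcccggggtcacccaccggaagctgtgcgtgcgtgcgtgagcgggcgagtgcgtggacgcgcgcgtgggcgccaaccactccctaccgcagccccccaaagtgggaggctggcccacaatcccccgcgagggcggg
Xrcc3: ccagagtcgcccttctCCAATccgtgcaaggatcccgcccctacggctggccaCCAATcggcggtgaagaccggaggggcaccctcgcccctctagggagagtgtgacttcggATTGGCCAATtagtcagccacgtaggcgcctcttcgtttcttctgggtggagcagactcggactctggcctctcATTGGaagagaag
Fanca: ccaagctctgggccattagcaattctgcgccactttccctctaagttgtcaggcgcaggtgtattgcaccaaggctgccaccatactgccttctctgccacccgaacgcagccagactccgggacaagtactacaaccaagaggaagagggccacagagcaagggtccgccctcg
Chek1: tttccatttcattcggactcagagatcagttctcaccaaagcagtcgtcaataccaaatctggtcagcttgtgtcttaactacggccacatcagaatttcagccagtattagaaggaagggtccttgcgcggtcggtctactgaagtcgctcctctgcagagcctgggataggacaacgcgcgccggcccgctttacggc
The Xrcc3 stretch held 5 CCAAT words, the word bound by the factor NF-Y, and the other 3 stretches held none. Fanca had 2 CCAAT words, 50 and 23 bases before its listed start, in bases that are not shown because they lie within the RefSeq gene. In the 250-base windows, a gene was counted if any of its listed promoters held the word. CCAAT on either strand was found for 17 of the 29 genes (58.6%), beside 40.3% of the 11537 genes tested that had a promoter entry. Counted promoter by promoter, a different unit, it was in 33.8% of all 32851 RefSeq promoters. For the words below, the same 2 shares are given in this order. A word of the cell cycle factor E2F (TTTCCCGC, TTTGGCGC, TTTCGCGC or TTTGCCGC, either strand) was found for 5 of the 29 genes (17.2%), beside 3.80% and 1.86%. These were Bard1, Brca2, Chek2, Fancg and Topbp1, of which Chek2 was downregulated while Bard1, Brca2, Fancg and Topbp1 were not called. With TTCCCGCC, TTGGCGCC and TTCGCGCC added to the E2F words, 8 genes (27.6%) had a match, beside 8.01% and 4.01%. The CHR word of mitotic genes (TTTGAA or TTCGAA) was found for 2 genes (6.90%), beside 15.2% and 17.1%. The palindromic NRF1 word was found for 2 genes (6.90%), beside 8.57% and 3.74%, and its inner part CGCANGCG for 3 genes (10.3%), beside 14.8% and 6.76%. A match is a run of letters and not a bound site, and these words were chosen after the fold changes were known.

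Other repair genes were taken from lists of pathway members. Of 100 other repair and checkpoint genes tested, 9 were upregulated and 16 downregulated, beside 21.7% and 24.4% of all genes, with a median log2 fold change of −0.19. Among 37 other genes of homologous recombination, which include Rad51l1, 4 rose (10.8%) and 7 fell (18.9%). The largest increase was that of Dmc1, the recombinase of meiosis, with 4.68, 5.71 and 3.61 scaled fragments in MPs and 630, 668 and 631 in APL (log2 fold change 6.84, adjusted p = 2.3e-08, limma). With so few fragments in MPs, the size of this change is imprecise. Babam1 (0.83, on chromosome 8) and Shfm1 (0.78), which encodes a small protein bound to Brca2, were also upregulated. H2afx, the histone variant that marks breaks (−0.80), and Fam175a (−0.80), the scaffold of the Brca1 A complex that also holds Babam1, were downregulated.

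Of 16 other crosslink repair genes, Dclre1b, a nuclease of crosslinks and telomeres, was upregulated (1.44) and Poln, a translesion polymerase, was downregulated (−1.65), and the median was 0.04. Of 13 end joining genes, which rejoin breaks without a template, 3 rose (23.1%) and 4 fell (30.8%), beside 21.7% and 24.4% of all genes. Lig4, the ligase of the pathway, rose from 172, 186 and 152 scaled fragments to 509, 466 and 470 (log2 fold change 1.5, on chromosome 8), with its partner Xrcc4 (1.03) and with Nhej1 (0.77). Dntt, the template-free polymerase of lymphoid precursors, fell from 1254, 1224 and 1787 to 20, 13.9 and 12.3 (−6.44), with Polm (−1.95) and Xrcc5 (−1.65), a subunit of the Ku end-binding complex. Of 15 other mismatch repair genes, none rose and 3 fell. Rfc2 (−0.78) and Pold2 (−0.65) were among them. Of 19 other checkpoint genes, Cdc25b rose (0.76) and Rad9b fell (−1.18).

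Genes of the cell cycle, with which repair genes are often transcribed, also had medians below that of all genes tested. Of 25 genes of S phase, 2 rose (8.0%) and 4 fell (16.0%), beside 21.7% and 24.4% of all genes, with a median of −0.19. Cdc45 (0.80) and Cdt1 (0.62, on chromosome 8) rose, and Ccne1 (−1.55), Tk1 (−0.86) and Pola1 (−0.83) fell the most. Of 25 genes of G2 and mitosis, none rose, beside 21.7% of all genes, and 7 fell (28.0%, beside 24.4%). Their median was −0.31, the same as that of the 37 repair genes to the digits given. Ccna2 (−0.86), Ube2c (−0.79) and Top2a (−0.75) fell the most. The part of the cell cycle in the values of the repair genes was not tested.

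**Figure D5:**
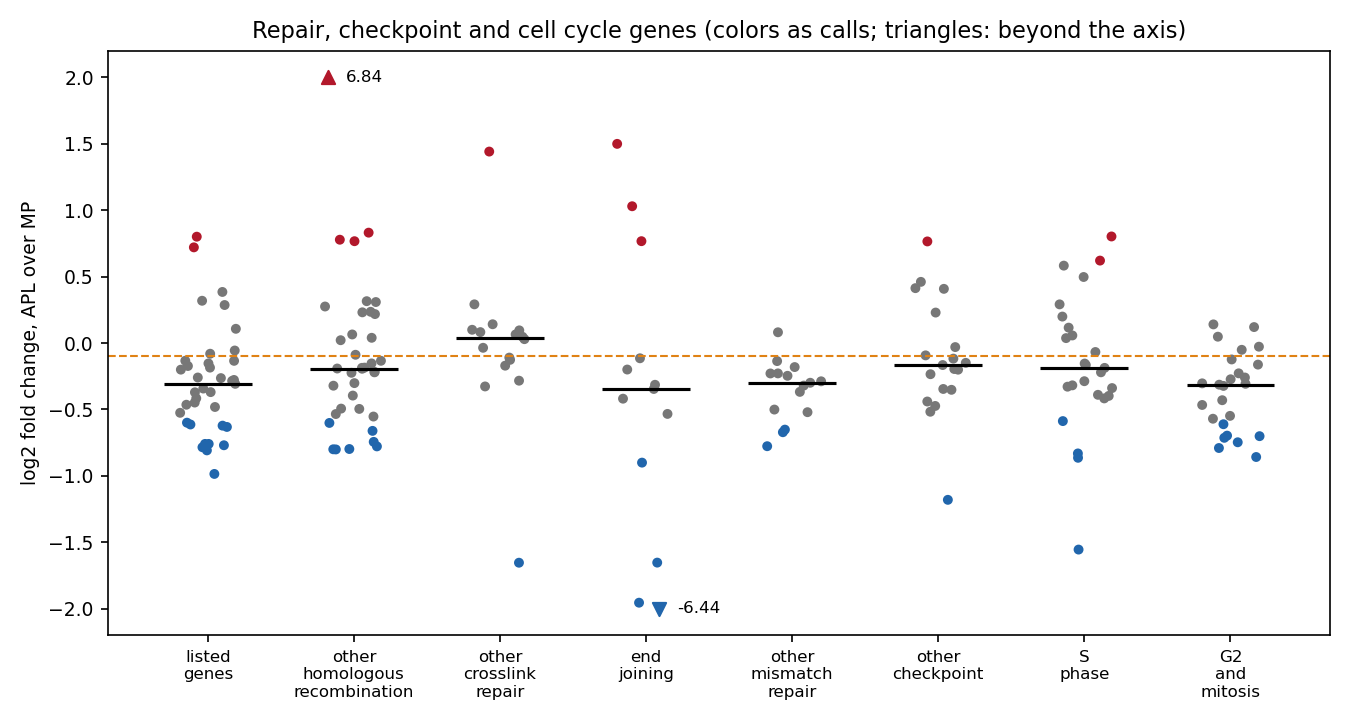
Log2 fold change (APL over MP) of the 37 listed genes and of the genes tested in 7 other lists (points; red and blue for up- and downregulated, grey for not called; bars are list medians; the dashed line is the median of all genes tested, −0.10). Triangles mark Dmc1 (6.84) and Dntt (−6.44), which lie beyond the axis, and the medians of the listed genes and of the G2 and mitosis list both lie at −0.31.

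Markers of several cell types also differed between the groups, and their part in the repair gene values was not tested. The summed level of the erythroid markers was 84720 to 100100 scaled fragments in MP libraries and 4646 to 4841 in APL libraries, and 11 of 12 tested fell, Klf1 and Gata1 among them. Tfrc alone had 4497, 4155 and 4151 in the APL libraries, so that this APL sum is mostly 1 gene. Of 8 megakaryocyte markers 6 fell (summed level 3071 to 4102 against 252 to 350), of 8 mast cell and basophil markers 6 fell and 1 rose (4195 to 5647 against 855 to 1047), and of 5 eosinophil markers all fell (4178 to 7182 against 1046 to 1527). Of 8 monocyte and dendritic markers 4 fell and 2 rose (5160 to 6470 against 2495 to 2628). Of 10 granulocyte markers 5 rose, Mpo, Elane and Ctsg among them, and 2 fell (372400 to 462900 against 981900 to 1136000). Of 6 B cell markers tested, 2 rose and 3 fell (376 to 456 against 4675 to 5412), Igll1 and Vpreb1 being those that rose. Igll1 alone had 4567, 5264 and 4873 in the APL libraries, most of the B cell sum there. Of 3 T cell markers tested 1 fell (269 to 380 against 112 to 160), and Cd3e was at 0 in 5 libraries. Of 6 stromal and endothelial markers 3 fell and 2 rose (1229 to 1565 against 356 to 496).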

How the data were processed

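RNA-seq of sorted cells covered 6 libraries. The labels name CASAVA 1.8, TopHat2 2.0.6 and mm10, and the methods name STAR, HTSeq-count and mm9. The tool behind the table is not given in the sources used here. The authors deposited FPKM values and fragment values per gene. The deposited fragment values are a signal, estimated fragments scaled by a factor of each library: between 88.2% and 89.7% of values below 100 fragments were whole multiples of a library step, within 0.02 fragments. They are not counts, so the test for normalized values was used. Loci fit GRCm38, with starts shifted by 1 base, and are given counted from 1.

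limma 3.58.1 in R 4.3.3 (lmFit, eBayes with a trend) was run on log2(scaled fragments + 1) for genes with at least 1 in at least 3 libraries, and tested on simulated data. Figures and promoter words used Python 3.11.15.

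The genes and lists were chosen with earlier results of these data known. All listed genes are named, with library values for Brca1, Brca2, Fancd2, Fanci, Atm, Atr, Chek1, Chek2 and the highest and lowest fold change of each role group. Pathway lists are represented by their largest changes in each direction. The neighbors that share a locus and the printed promoters were chosen after their values were seen. Some genes of these lists are not reported here.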

Additional observations from a re-analysis of the deposited data

How the results depend on the processing

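The 2 upregulated and 10 downregulated repair genes were recounted under other filters, pseudocounts, scalings, weights, thresholds and library choices. Without a fold limit, 5 were upregulated and 22 downregulated, and with a limit of 2-fold the counts were 0 and 0, beside 2 and 10 at an unadjusted p under 0.05 with the 1.5-fold limit. Median ratio scaling left 6 downregulated (16.2%, beside 22.4% of all genes) with Palb2 (−0.54), Xrcc3 (−0.57), Mre11a (−0.56) and Eme1 (−0.55) inside the limit, and the upregulated count was 2. Scaling to the same total, and voom weights on it, gave 13 downregulated each (35.1%, beside 29.4% and 29.2% of all genes). They moved the median of all genes by −0.13 and made 61.4% and 60.9% of all calls decreases, against 52.9%. Xrcc3 was also inside the limit under quantile normalization (−0.58), and Eme1 with FPKM (−0.58). Leaving out each library in turn gave 9 to 10 downregulated and 2 to 2 upregulated. Fancf turned to −0.023 under the same total and to −0.026 with voom, and Fancg to 0.0063 under median ratio scaling, neither called. Of 663 recomputed fold changes, including those of Rad51b and Rad51d, 636 kept direction and call, 14 passed the threshold newly, 10 no longer passed and 3 changed sign. Of the 37 genes, 25 kept their call and direction throughout. A replicate block on the library number gave 10 and 2. Deviations of same-numbered libraries correlated at 0.21, 0.04 and 0.21 over 10310 genes, and MP library 2 correlated best with APL library 1, so that the numbers are not taken as pairs.

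Each group had 3 libraries, and every listed gene had over 100 scaled fragments in every library. The relation of single libraries with length bears on Atm, Brca2, Atr and Fance in both MP library 3 and APL library 1. In MP library 3, Bard1 was also far below the other libraries of its group (−0.51 on the log2 scale). Origin of the cells, transduction with its cytokine culture, and transplantation differ together between the groups and cannot be told apart from the leukemia.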
